A study of Mus musculus with 2 samples.

Results

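The 8 genes described here handle heme and iron, and were taken by symbol from the 27998 genes of the table, where each has 1 row. They are Hmox1, Blvra and Blvrb of heme breakdown, the ferritin chains Fth1 and Ftl1, and the transporters Slc40a1, Slc11a1 and Tfrc. They were measured by single-cell RNA-Seq in leukocytes of subcutaneous Lewis lung carcinoma (LLC) tumors, a mouse lung carcinoma line, taken 14 days after implantation into C57/BL6 mice that were 8 weeks old at implantation and 10 weeks old by the sample label. Control mice were miR-21fl/fl, with loxP sites around miR-21, and LysMCre;miR-21fl/fl mice carried the same floxed alleles and Cre expressed from the lysozyme M gene, so that deletion is limited to cells that use this gene, chiefly macrophages and granulocytes. Each genotype was 1 droplet library of leukocytes pooled from 3 mice, titled wt for the control and cko for the Cre-carrying mice.

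The genotype given in each sample's title is the reverse of that in its source description, and the growth protocol names a CD11b+, MHCII+, F4/80+ gate where the design text names CD45+ cells. Groups therefore follow the titles, and the libraries are written as labelled wt or labelled cko. Lyz2, the gene that carries the Cre insertion, had 19241 CPM (the UMIs of a gene in a class of cells, scaled to a total of 1000000) in monocyte/macrophage-like cells labelled wt and 9157 CPM in those labelled cko, which is the order of the titles. After filtering, 2397 and 2646 cells remained, of which 2056 (85.8%) and 2201 (83.2%) were monocyte/macrophage-like, with median depths of 8533 and 8423 UMIs per cell. The libraries shared 5 cell barcodes. With 1 library per genotype no difference below has a replicate check, no p-value is given, and every interval is a 95% interval that covers counting error only.

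Heme oxygenase 1, encoded by Hmox1, opens the heme ring and releases iron, carbon monoxide and biliverdin. Biliverdin reductases A and B (Blvra, Blvrb) reduce biliverdin to bilirubin, and the ferritin heavy and light chains (Fth1, Ftl1) build the shell that stores the freed iron. Ferroportin (Slc40a1) is the known iron exporter of the cell surface, NRAMP1 (Slc11a1) moves metal ions out of the phagosome, and transferrin receptor 1 (Tfrc) brings transferrin-bound iron in. Macrophages of the spleen and liver recycle the iron of aged red cells by this route. Mice of this strain carry an Slc11a1 allele whose protein does not function, so the values below for Slc11a1 describe its transcript.

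A part of this gene set is controlled after transcription through iron-responsive elements (IREs), RNA hairpins bound by the iron regulatory proteins Aco1 and Ireb2 when iron is scarce. An IRE before the coding sequence is known to block translation, and IREs after it are known to protect the transcript, so UMI counts show only part of that control. The untranslated regions (UTRs) of the mouse annotation (GRCm38) were searched on the transcript strand for the loop CAGTGN closed by 5 base pairs, with an unpaired C on the 5′ side below them. The hairpin was found in 4 of the 8 genes: once in the 5′ UTR of Fth1, Ftl1 and Slc40a1, and 4 times in the 3′ UTR of Tfrc. In all, 0.106% of 20731 genes had it in the 5′ UTR (22 genes) and 0.560% in the 3′ UTR (116 genes). For these shares only the longest coding transcript with both UTRs was searched per gene. Every coding transcript of the 8 genes was searched, so their count and these shares are not like for like. The hairpins are shown because they divide the set into storage and export genes with the element in front and an uptake gene with it behind. Capitals mark the loop.
Fth1 5′ UTR, chr19:9982732-9982760, plus strand: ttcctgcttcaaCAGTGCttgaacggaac
Ftl1 5′ UTR, chr7:45459779-45459807, minus strand: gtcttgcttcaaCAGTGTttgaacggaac
Slc40a1 5′ UTR, chr1:45925465-45925493, minus strand: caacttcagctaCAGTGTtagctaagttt
Tfrc 3′ UTR, chr16:32631219-32631247, plus strand: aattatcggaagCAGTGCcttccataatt
Tfrc 3′ UTR, chr16:32631598-32631626, plus strand: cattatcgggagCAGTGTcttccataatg
Tfrc 3′ UTR, chr16:32631663-32631691, plus strand: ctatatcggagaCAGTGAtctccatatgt
Tfrc 3′ UTR, chr16:32631710-32631738, plus strand: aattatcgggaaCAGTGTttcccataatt
The letters were not found in the annotated UTRs of Hmox1, Blvra, Blvrb or Slc11a1, which says nothing about other control of these transcripts.

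Monocyte/macrophage-like cells were divided into 8 states by the UMIs of other markers, none of them a heme or iron gene of the set. The low-C1q states were the classical interferon-low state (531 cells labelled wt and 520 labelled cko), the classical interferon-high state (179 and 151), the nonclassical state (166 and 170) and a C1q-low, Ly6c2-low state (426 and 411). The last had no marker name and was led by Ctsk, Mmp9, Mt3, Atp6v0d2 and Acp5. The C1q-high states were C1q cells that kept Ly6c2 (212 and 183), C1q cells with Vcam1, Ccl8 or Folr2 (157 and 182), C1q cells with Cd300e, Clec4b1 or Pparg (104 and 235) and the other C1q cells (281 and 349). Classes are called like a cell type from RNA markers alone.

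Storage transcripts were by far the most abundant of the set. Ftl1 reached 10265 CPM labelled wt and 10300.1 CPM labelled cko over all monocyte/macrophage-like cells, and Fth1 7811 and 7161 CPM. Hmox1 had 342 and 354 CPM, Blvrb 275 and 241, Slc11a1 249 and 304, and Blvra 131 and 138. Slc40a1, with 56.8 and 57.4 CPM, and Tfrc, with 5.40 and 3.99 CPM, were the lowest. In 3′ libraries a UMI stands for the end of 1 transcript, so these levels need no scaling to length, although capture can differ between genes.

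**Figure D1:**
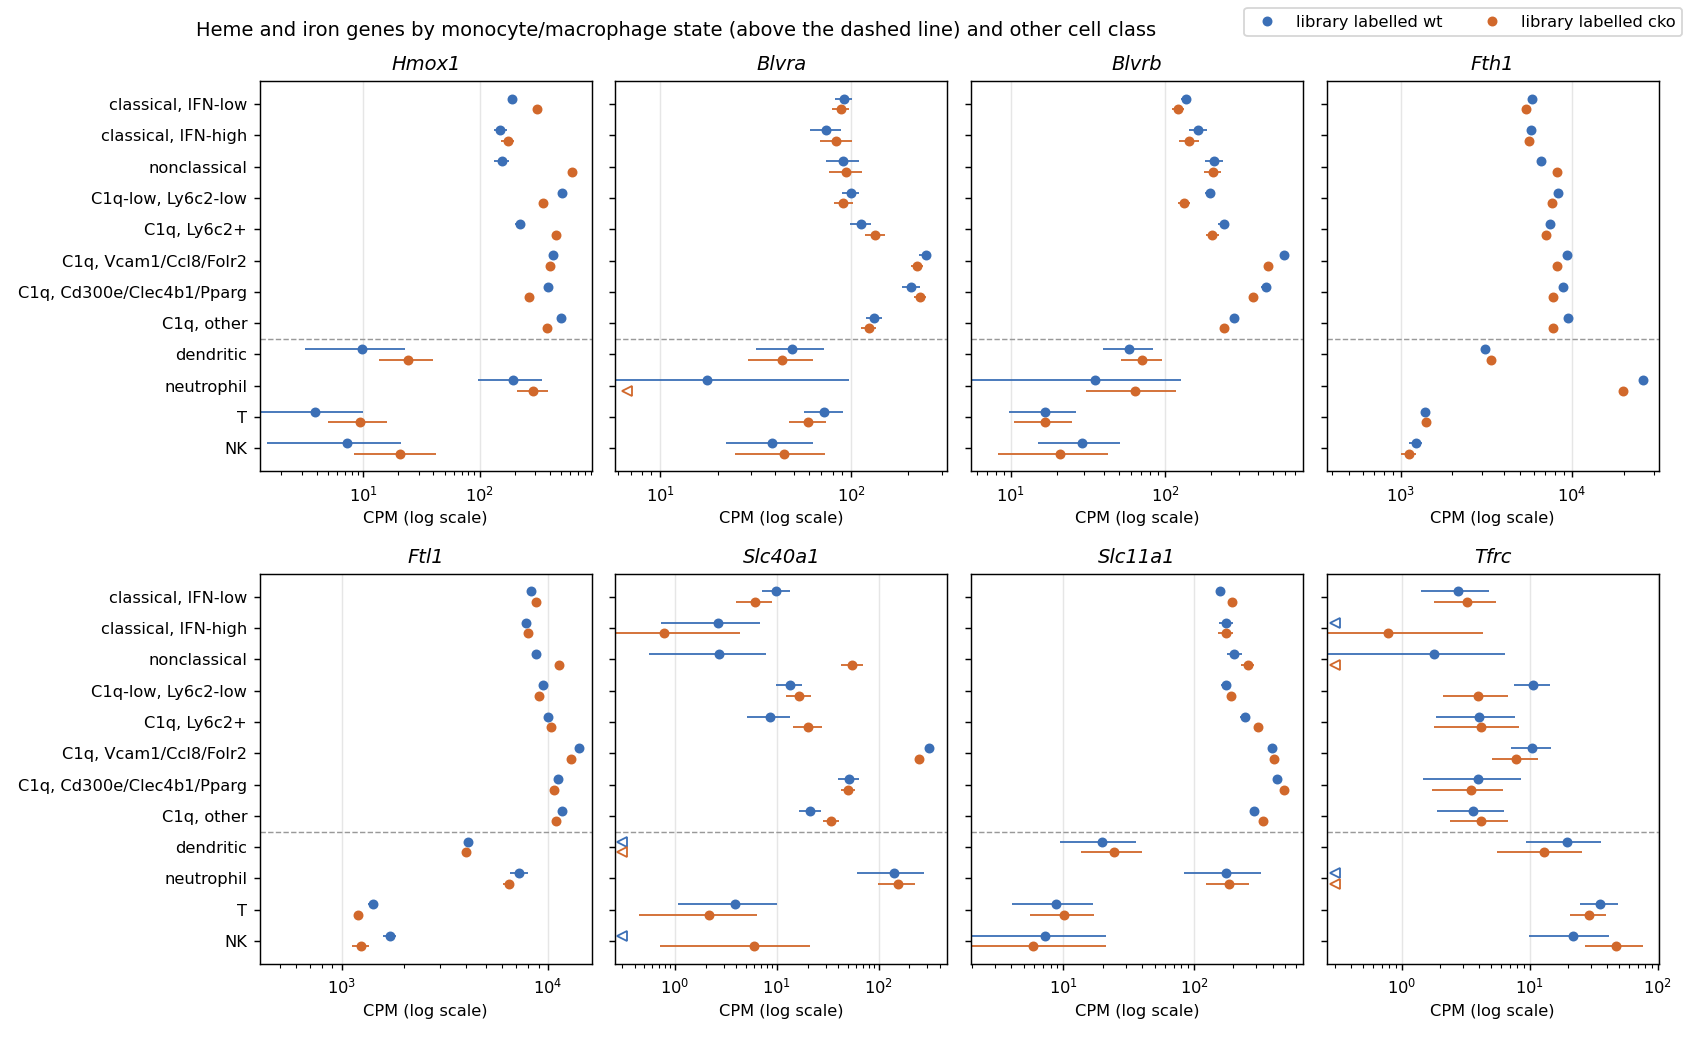
CPM of each gene on a log scale in the 8 monocyte/macrophage states (above the dashed line) and in 4 other classes, in blue for the library labelled wt and in orange for that labelled cko. Points are CPM of the summed UMIs, lines are 95% intervals for counting error (cut at the left edge where they run past it), and open triangles mark classes with 0 UMIs. Slc40a1 peaks in C1q cells with Vcam1, Ccl8 or Folr2 at 308 and 249 CPM, and the libraries exchange order most visibly for Hmox1.

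Most of the set was more abundant in the C1q-high states than in the C1q-low states of the same library. In both libraries 5 of the 7 genes with at least 100 UMIs in each library were higher by a log2 ratio of at least 0.32, the limit used throughout, and 0 were lower, where 20.2% of 8298 genes tested were higher in both and 13.5% lower. Blvrb was 2.30-fold higher labelled wt (389 against 169 CPM) and 2.38-fold higher labelled cko (327 against 137 CPM). Slc11a1 was 1.94-fold and 1.97-fold higher, and Blvra 1.88-fold and 2.00-fold. Slc40a1 had the steepest difference of the set, 11.6-fold (108 against 9.30 CPM) and 6.50-fold (93.0 against 14.3 CPM). Ftl1 was higher by log2 ratios of 0.46 and 0.32. Fth1 (1.31-fold and 1.20-fold) and Hmox1 (1.36-fold and 1.07-fold) stayed under the limit in the library labelled cko. Tfrc had 88 UMIs in the library labelled cko and was not counted. Ftl1 labelled cko lay on the limit, and the count of 5 was 4 with no doublet removal, with gates on thinned cells, with marker thresholds raised 1.5 times or in cells with at least 5000 UMIs. With marker thresholds at 0.5 times their value the count was 6. Without the cells richest in Hmox1, described below, the count was 7, with Hmox1 at 0.59, Fth1 at 0.39 and Slc40a1 at 5.27 on the log2 scale labelled cko, against 0.10, 0.26 and 2.70 with them.

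The iron exporter was the most state-restricted gene of the set. In C1q cells with Vcam1, Ccl8 or Folr2 Slc40a1 had 914 UMIs (308 CPM) labelled wt and 796 UMIs (249 CPM) labelled cko. This state held 7.64% and 8.27% of monocyte/macrophage-like cells but 77.5% and 62.8% of their Slc40a1 UMIs. The next state labelled wt, C1q cells with Cd300e, Clec4b1 or Pparg, had 50.9 CPM (50.4 CPM labelled cko), and the classical interferon-high state had 4 and 1 UMIs. Slc40a1 was seen in 96 of 157 and 95 of 182 cells of the Vcam1, Ccl8 or Folr2 state. With every cell thinned to 1000 UMIs, which left out no cell, 20.4% (14.4 to 27.5) and 16.5% (11.4 to 22.7) of these cells kept a UMI, against 0 of 170 and 0 of 205 T and NK cells, counts that allow up to 1.76% and 1.46%. Thinned shares in the other C1q-high states lay between 0.287% and 3.83%.

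Biliverdin reductase transcripts followed a similar order of states. Blvrb was highest in C1q cells with Vcam1, Ccl8 or Folr2 (591 and 463 CPM), then in those with Cd300e, Clec4b1 or Pparg (450.1 and 369 CPM), then in the other C1q cells (279 and 242 CPM), and the ranges of the 2 libraries did not overlap between these neighbours. The lowest Blvrb was in the classical interferon-low state, with 137 and 122 CPM. Blvra had its highest levels in the same 2 C1q states, 246 and 222 CPM against 206 and 229 CPM, which overlap. The remaining states lay between 73.7 and 133 CPM of Blvra.

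Slc11a1 was highest in C1q cells with Cd300e, Clec4b1 or Pparg, at 432 CPM labelled wt and 491 CPM labelled cko. C1q cells with Vcam1, Ccl8 or Folr2 came next (394 and 409 CPM), and the ranges did not overlap. Below them were the other C1q cells (289 and 335 CPM), the Ly6c2-positive C1q cells (245 and 311 CPM) and the nonclassical state (203 and 257 CPM), with overlapping ranges between neighbours. The classical and the C1q-low, Ly6c2-low states had 159 to 196 CPM.

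Ferritin varied least over the states. Ftl1 ran from 7829 CPM labelled wt in the classical interferon-high state to 14193 CPM in C1q cells with Vcam1, Ccl8 or Folr2, and from 7996 to 12985 CPM labelled cko. The mean of the libraries differed 1.72-fold between the highest and lowest states for Ftl1 and 1.56-fold for Fth1, against 4.08-fold for Blvrb, 2.98-fold for Blvra, 2.69-fold for Hmox1 and 2.64-fold for Slc11a1. There were 0.761 Fth1 UMIs per Ftl1 UMI labelled wt and 0.695 labelled cko, with the highest ratio in the C1q-low, Ly6c2-low state (0.879 and 0.837). Ftl1 transcripts match 11 other annotated genes with at least 95% identity over at least 98 bases, 5 of them over 549 to 910 bases and 6 over 109 bases, and 1 of the 5, the pseudogene Gm10116 (Ftl1-ps1), has a row in the table with 3694 and 3725 UMIs, 1.73% and 1.64% of the Ftl1 UMIs. Reads of Ftl1 and these genes may have been split or dropped in counting, so its absolute level is uncertain. Fth1 has 1 such match, over 274 bases, and the other 6 genes have 0.

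Outside the monocyte/macrophage-like cells the balance of the 2 ferritin chains differed by class. The neutrophil-like cells (15 and 40 cells, median depth 3264 and 3678 UMIs) had 25784 and 19936 CPM of Fth1 but 7226 and 6438 CPM of Ftl1, or 3.57 and 3.10 Fth1 UMIs per Ftl1 UMI. They also had Slc40a1, with 8 UMIs (140.3 CPM) and 24 UMIs (153 CPM), seen in 5 and 14 cells, and Hmox1 at 193 and 286 CPM. T cells had the lowest Fth1 but for NK cells, 1389 and 1416 CPM, and only 3.91 and 9.40 CPM of Hmox1. Tfrc had the reverse order, with 35.2 and 28.9 CPM in T cells (36 and 40 UMIs) and 21.8 and 47.2 CPM in NK cells (9 and 16 UMIs) against 5.40 and 3.99 CPM in monocyte/macrophage-like cells. In NK cells 6 of the 9 UMIs labelled wt and 5 of the 16 labelled cko were in 1 cell. Dendritic-like cells had 0 UMIs of Slc40a1 in either library and 9.78 and 24.2 CPM of Hmox1.

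Hmox1 was not spread over cells the way the other enzymes were. In cells thinned to 3000 UMIs, the 10% of monocyte/macrophage-like cells with the most UMIs of a gene held 70.8% and 67.8% of Hmox1 UMIs, against 41.7% and 46.1% for Blvrb and 22.7% and 23.3% for Ftl1. The ratio of variance to mean (Fano factor, near 1 for counting noise alone) was 19.1 and 13.7 for Hmox1, and 1.39 and 1.57 for Blvrb. The median cell had 0 Hmox1 UMIs at this depth in either library, and the highest cell had 91 and 58.

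Cells with at least 16 Hmox1 UMIs per 10000 UMIs are called Hmox1-high below. The limit was chosen after the values were seen and cuts a continuous range, with 51 and 53 cells between 8 and 16 per 10000 and 18 and 23 cells between 16 and 32. It took 50 cells labelled wt, 2.43% (1.81 to 3.19), and 59 cells labelled cko, 2.68% (2.05 to 3.44). These cells held 47.4% and 48.1% of the Hmox1 UMIs of monocyte/macrophage-like cells. They were most frequent labelled wt in the C1q-low, Ly6c2-low state (23 of 426 cells, 5.40%, 3.45 to 7.99) and in C1q cells with Cd300e, Clec4b1 or Pparg (5 of 104, 4.81%, 1.58 to 10.9). The other C1q cells had 12 of 281 (4.27%, 2.23 to 7.34). In the library labelled cko Hmox1-high cells were most frequent in C1q cells with Vcam1, Ccl8 or Folr2 (11 of 182, 6.04%, 3.06 to 10.6) and in the nonclassical state (7 of 170, 4.12%, 1.67 to 8.30). The C1q-low, Ly6c2-low state there had 15 of 411 (3.65%, 2.06 to 5.95). Within each library these intervals overlapped, so the states named were not told apart. The median depth of Hmox1-high cells was 9285 UMIs against 8528 labelled wt and 9641 against 8402 labelled cko. Median mitochondrial shares were 1.38% against 1.78% and 1.66% against 1.89%, and the median doublet score equalled that of the other cells, 0.0519 and 0.0466.

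**Figure D2:**
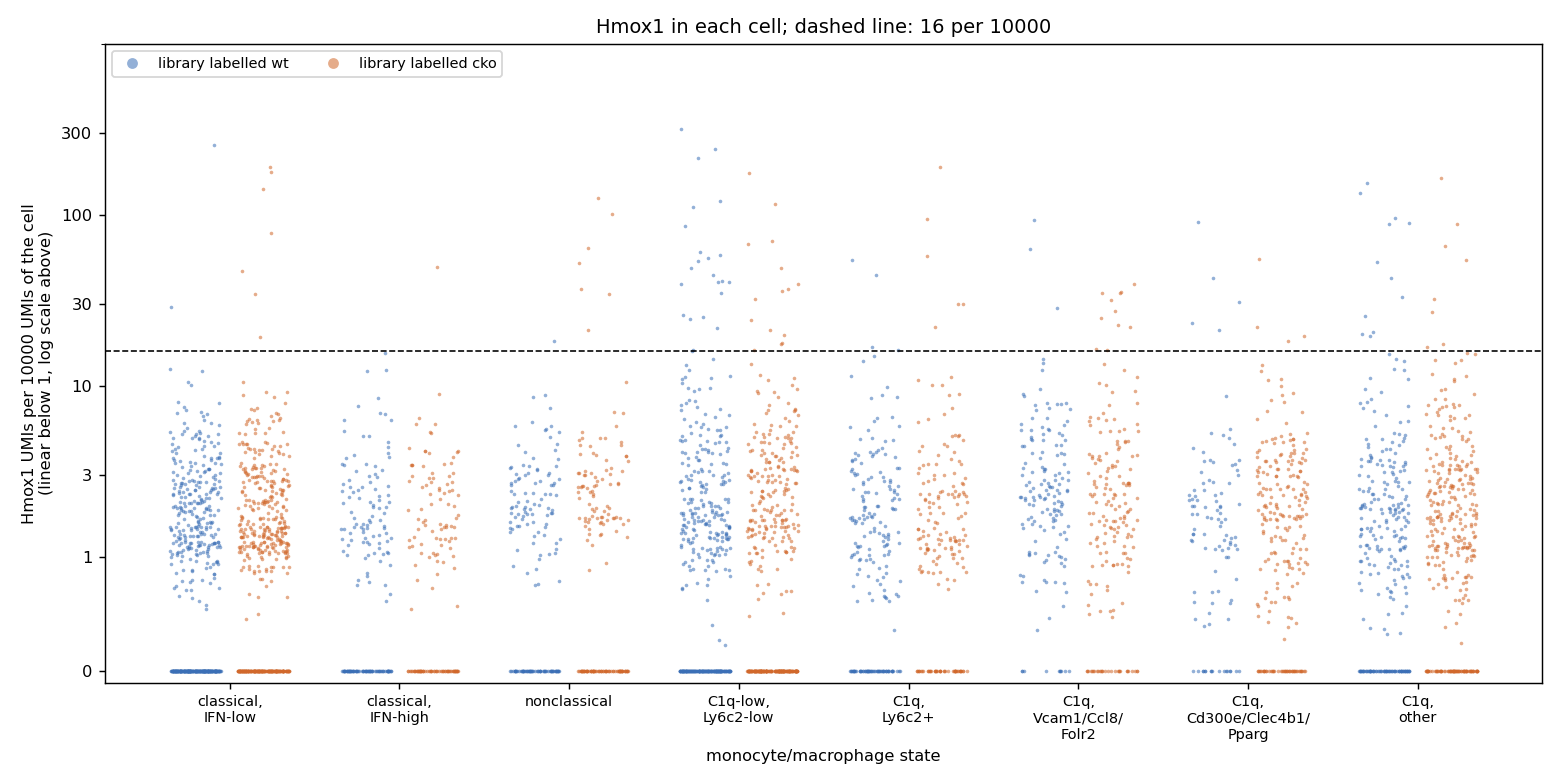
Hmox1 UMIs per 10000 UMIs of each monocyte/macrophage-like cell (linear below 1, log scale above), by state, in blue for the library labelled wt and in orange for that labelled cko. The dashed line is the limit of 16 per 10000, above which 50 and 59 cells lie, and every state has cells at 0 in both libraries.

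Iron storage and export transcripts were higher in the Hmox1-high cells of both libraries. Of the 6 other genes with enough UMIs, 5 were past the limit upward in both libraries and 0 downward, where 8.66% of all genes tested were higher and 22.6% lower. Fth1 had 31796 CPM in Hmox1-high cells against 7163 CPM in the other cells labelled wt (4.44-fold), and 26275 against 6554 CPM labelled cko (4.01-fold). Ftl1 had 25970.5 against 9841 CPM (2.64-fold) and 27276 against 9761 CPM (2.79-fold). Slc40a1 had 171 UMIs and 313 CPM against 49.9 CPM (6.28-fold, log2 interval 2.41 to 2.89), and 320 UMIs and 471 CPM against 44.3 CPM (10.6-fold, 3.22 to 3.60). With the other cells weighted to the same states the Slc40a1 folds were 7.69 and 6.13. Blvrb was 2.21-fold and 2.15-fold higher. Blvra was at the limit, with log2 ratios of 0.33 (0.01 to 0.63) and 0.35 (0.08 to 0.62), and was the gene no longer counted with limits of 8 or 32 per 10000 or with the other cells weighted to the same states. Slc11a1 was 1.44-fold and 1.14-fold higher, and Tfrc had 2 and 4 UMIs in these cells.

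In the wider heme and iron list the NRF2 targets were higher in the same cells. The list holds 57 further genes, of which 44 had at least 100 UMIs in each library, and 19 were higher and 10 lower in Hmox1-high cells, where 8.66% of all genes tested were higher and 22.6% lower. NRF2 is the transcription factor that induces Hmox1 and ferritin genes under oxidative stress, and all 7 of its other listed targets with enough UMIs were higher. Gclm, of glutathione synthesis, was 5.76-fold and 12.6-fold higher, the cystine importer Slc7a11 5.80-fold and 7.75-fold, the sulfiredoxin Srxn1 2.76-fold and 9.08-fold, and the peroxiredoxin Prdx1 3.07-fold and 4.48-fold. Sqstm1 was 3.00-fold and 3.30-fold higher, Txnrd1 1.48-fold and 2.58-fold, and Gclc 1.99-fold and 2.72-fold. Gclc had only 7 and 14 UMIs in Hmox1-high cells, and its log2 interval labelled wt spanned 0 (−0.35 to 2.08). Transcripts of NRF2 itself (Nfe2l2) were at 1.01-fold and 0.906-fold, and those of Bach1, the heme-binding repressor of Hmox1, at 0.905-fold and 0.648-fold.

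The other roles of the list were mixed. Of its genes of heme uptake and transport 3 of 4 were higher and 1 lower, of iron uptake and transfer 3 of 7 higher and 1 lower, of heme and stress regulators 4 of 8 higher and 0 lower, and of heme breakdown 1 of 2 higher. Por, the reductase that feeds electrons to heme oxygenase, was 4.41-fold and 3.08-fold higher, and Slc48a1, which moves heme out of the phagolysosome, 4.29-fold and 5.01-fold. The iron importer Slc39a14 was 4.43-fold and 3.61-fold higher. Spic, a transcription factor of iron-recycling macrophages, was 4.60-fold and 3.21-fold higher, and Maf (1.89-fold and 1.55-fold) and Mafg (2.01-fold and 1.65-fold) were higher by less. Among the 3 iron sensing genes Fbxl5, which targets Ireb2 for degradation, was 2.26-fold and 1.51-fold higher. Ireb2 (0.680-fold and 0.413-fold, 4 and 3 UMIs in these cells) and Aco1 (0.747-fold and 0.668-fold, 9 and 10 UMIs) encode the iron regulatory proteins. Both were past the limit downward, but counting error spanned 0 for each in both libraries. Hfe, the only gene tested of iron export and its control, was lower (0.499-fold and 0.751-fold), as were 2 of 4 mitochondrial iron genes, among them Iscu (0.490-fold and 0.788-fold).

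Of the 8 heme synthesis genes 0 were higher and 3 lower, where 8.66% of all genes were higher and 22.6% lower, so this count is not far from the background. Alas1, the enzyme of its rate-limiting step, was at 0.443-fold (45.8 against 103 CPM) and 0.711-fold (64.8 against 91.1 CPM), and the other 2, Alad and Cpox, had 3 to 6 UMIs in these cells. Hp, haptoglobin, was at 0.249-fold and 0.348-fold. Genes outside the list with high folds, chosen for their values, included Ppbp (53.9-fold and 38.8-fold), Cxcl3 (38.0-fold and 13.1-fold), Hilpda (18.0-fold and 9.51-fold), Spp1 (16.1-fold and 7.69-fold) and the metallothionein Mt1 (9.71-fold and 4.97-fold).

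**Figure D3:**
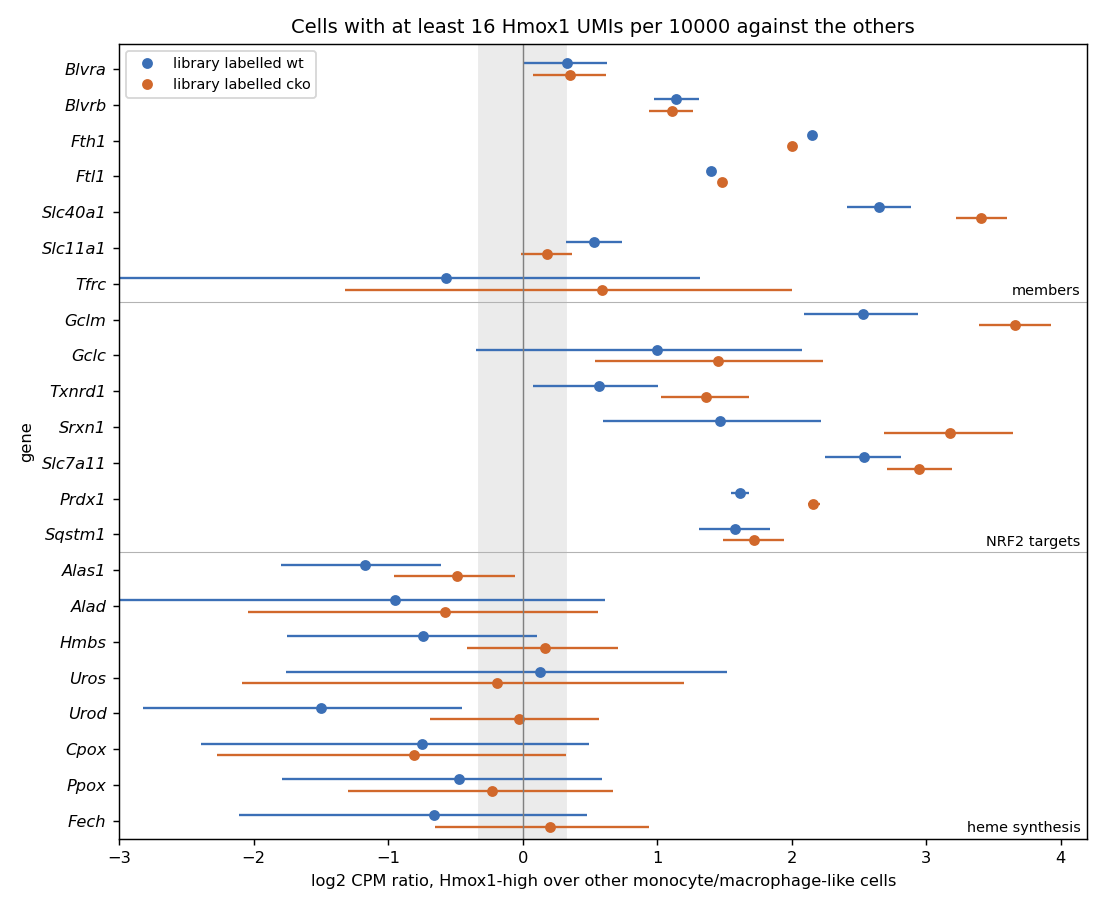
Log2 ratio of CPM, Hmox1-high over other monocyte/macrophage-like cells, for the other genes of the set, NRF2 targets and heme synthesis genes with the library labelled wt in blue and that labelled cko in orange. Lines are 95% intervals for counting error, cut at the left edge, and the grey band spans a log2 ratio of 0.32 in either direction. Ferritin, Slc40a1, Blvrb and the NRF2 targets lie to the right of 0 in both libraries, and Alas1 to the left.

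Within states, ferritin and Hmox1 were also related over all cells, described by a rank correlation in each of 16 pairs of state and library (cells thinned to 3000 UMIs, Hmox1-high cells included, cells of 1 library not being replicates). Fth1 and Ftl1 had a median Spearman rho of 0.40 (0.21 to 0.55), Hmox1 and Ftl1 0.26 (0.03 to 0.41), and Hmox1 and Fth1 0.20 (−0.01 to 0.35). Blvra and Blvrb had a median of 0.01 (−0.07 to 0.11). All of these share the depth and the total of the same cell.

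The comparison of the libraries asked whether the set differed with the genotype named in the titles. Over all monocyte/macrophage-like cells 7 of the 8 genes lay within the limit, 0 were higher and 1 was lower, where 10.9% of 9657 genes were past this limit in either direction. Hmox1 had a log2 ratio (cko over wt) of 0.05 (0.00 to 0.10), Blvra 0.08 (0.00 to 0.15), Ftl1 0.00 and Slc40a1 0.01 (−0.10 to 0.13). The median ratio of the 8 genes was 0.01, and that of all genes 0.03. The gene past the limit was Tfrc, from 112 and 88 UMIs (−0.44, −0.86 to −0.02). It lay at −0.22 without the cell that had the most Tfrc UMIs in each library, within the limit.

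Blvrb and Fth1 were lower, and Slc11a1 higher, by less than the limit. Blvrb had 275 CPM labelled wt and 241 CPM labelled cko (−0.19, −0.24 to −0.13). Its ratio was below 0 in 8 of 8 states with CPM, TMM or median-of-ratios scaling, from −0.56 to −0.02 with CPM. Slc11a1 had 249 and 304 CPM (0.29, 0.24 to 0.34), with ratios above 0 in 8 of 8 states with CPM (0.01 to 0.34) and in 7 of 8 with either other scaling. Fth1 had 7811 and 7161 CPM (−0.13, −0.14 to −0.12), and was above 0 in the nonclassical state only, with each scaling. States of 1 library come from the same pool of mice and are not replicates of it.

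**Figure D4:**
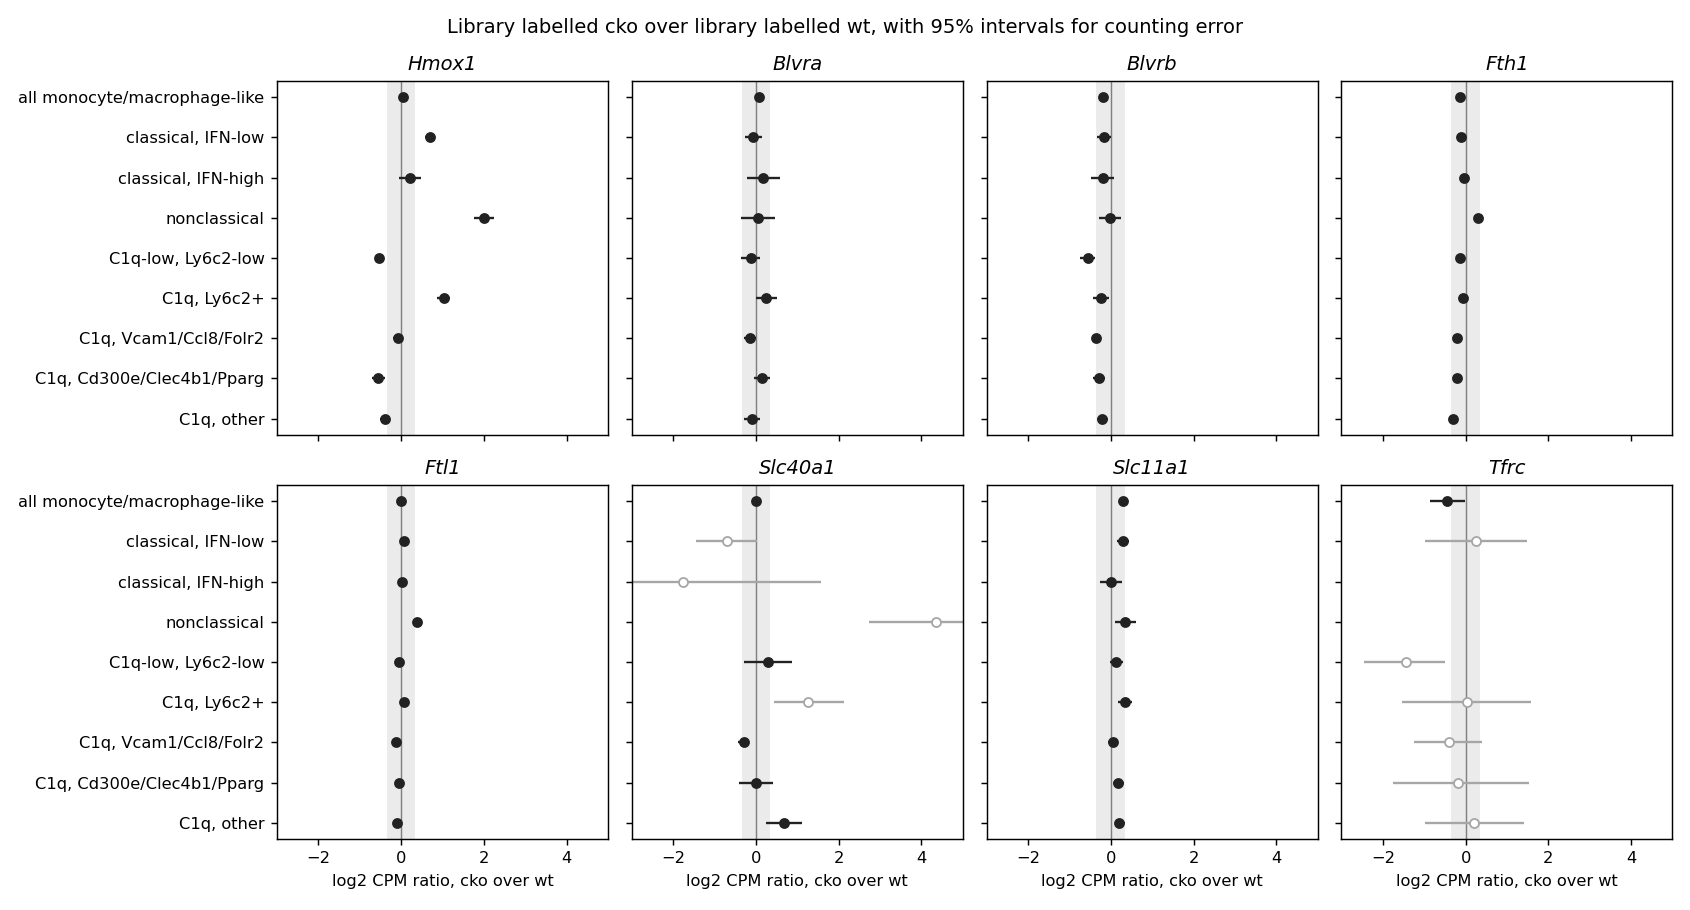
Log2 ratio of CPM, library labelled cko over library labelled wt, for each gene over all monocyte/macrophage-like cells and in each state. Lines are 95% intervals for counting error (cut at the edges), the grey band spans a log2 ratio of 0.32 in either direction, open grey points are pairs with fewer than 100 UMIs over both libraries, and no point is drawn where 1 library had 0 UMIs. Hmox1 ratios range from −0.55 to 2.00 over the states, while those of Fth1, Ftl1 and Blvra stay between −0.30 and 0.38.

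By state, 12 pairs of gene and state were past the limit, 7 higher and 5 lower labelled cko. In the classical interferon-low state 1 of 6 genes was past it (14.0% of all genes tested there), and in the interferon-high state 0 of 6 (14.6% of all genes). In the nonclassical state it was 3 of 6 (17.6%), in the C1q-low, Ly6c2-low state 2 of 7 (14.0%) and in Ly6c2-positive C1q cells 2 of 6 (15.8%). C1q cells with Vcam1, Ccl8 or Folr2 had 1 of 7 (16.7%), those with Cd300e, Clec4b1 or Pparg 1 of 7 (21.5%) and the other C1q cells 2 of 7 (15.2%). Hmox1 made up 6 of the 12 pairs.

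Hmox1 differed between the libraries in opposite directions by state. In the nonclassical state it had 173 UMIs (155 CPM) labelled wt and 699 UMIs (620.4 CPM) labelled cko, a log2 ratio of 2.00 (1.76 to 2.25). It was also higher labelled cko in Ly6c2-positive C1q cells (220.2 and 449 CPM, 1.03, 0.87 to 1.19) and in the classical interferon-low state (191 and 309 CPM, 0.69, 0.57 to 0.82). It was lower in C1q cells with Cd300e, Clec4b1 or Pparg (385 and 264 CPM, −0.55, −0.70 to −0.39), in the C1q-low, Ly6c2-low state (505 and 349.8 CPM, −0.53, −0.64 to −0.42) and in the other C1q cells (497 and 377 CPM, −0.40, −0.50 to −0.30). The remaining 2 states lay within the limit, at 0.21 and −0.07. These ratios depended on where the states were cut. With marker thresholds at 0.5 times their value the nonclassical state was at 0.40, the classical interferon-low state at 0.19 and the C1q-low, Ly6c2-low state at −0.04. With thresholds at 1.5 times, Ly6c2-positive C1q cells were at 0.03, the other C1q cells at −0.21 and the C1q-low, Ly6c2-low state at −0.22. With gates on cells thinned to 3000 UMIs, Ly6c2-positive C1q cells were at 0.19, C1q cells with Cd300e, Clec4b1 or Pparg at −0.18 and the other C1q cells at −0.13, and the nonclassical state was at 1.08.

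They also moved with a few cells. Of the 699 Hmox1 UMIs of the nonclassical state labelled cko, 538 came from 7 Hmox1-high cells and 295 from 1 cell. Without the cell of each state with the most Hmox1 UMIs in each library, the ratio of this state was 1.32, that of Ly6c2-positive C1q cells 0.52 and that of C1q cells with Cd300e, Clec4b1 or Pparg −0.24, while the classical interferon-low (0.92), the C1q-low, Ly6c2-low (−0.69) and the other C1q state (−0.59) moved away from 0. The cells below the Hmox1-high limit are described next, without a test, since a limit on Hmox1 itself narrows by construction how far the libraries can differ in it. In these cells the nonclassical state had 147 and 152 CPM (0.05, −0.27 to 0.38). The ratio was 0.13 in the classical interferon-low state, −0.17 in the interferon-high state, −0.05 in the C1q-low, Ly6c2-low state and 0.06 in Ly6c2-positive C1q cells. It was −0.26 (−0.40 to −0.12) in C1q cells with Vcam1, Ccl8 or Folr2, farther from 0 than with all cells, 0.31 (0.10 to 0.53) in those with Cd300e, Clec4b1 or Pparg and 0.10 (−0.05 to 0.25) in the other C1q cells. Over all monocyte/macrophage-like cells it was 0.04 (185 and 189.6 CPM). The share of nonclassical cells with a Hmox1 UMI after thinning to 1000 UMIs was 16.3% (11.0 to 22.8) and 17.1% (11.7 to 23.6), against 1.18% and 2.93% of T and NK cells.

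Ftl1 was past the limit in the nonclassical state as well. It had 8730.3 and 11339 CPM (0.38, 0.34 to 0.42), and Fth1, within the limit, 6616 and 8138 CPM (0.30, 0.25 to 0.34). Of the UMIs labelled cko, the 7 Hmox1-high cells held 3752 of 12775 for Ftl1 and 2984 of 9169 for Fth1, and without the Hmox1-high cells the Ftl1 ratio was −0.02. It was 0.17 without the cell with the most Ftl1 and 0.04 with marker thresholds at 0.5 times. Slc40a1 had 3 UMIs labelled wt and 62 labelled cko, of which 57 were in Hmox1-high cells and 38 in 1 cell, and was under the 100 UMIs needed to count. Slc11a1 was also higher there, 203 and 257 CPM (0.34, 0.09 to 0.60), at 0.23 without the Hmox1-high cells and at 0.15 with thresholds at 0.5 times, both within the limit.

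The remaining Blvrb and Slc11a1 pairs past the limit did not involve the Hmox1-high cells to the same extent. Blvrb was lower labelled cko in the C1q-low, Ly6c2-low state (196 and 133 CPM, −0.56, −0.74 to −0.39) and in C1q cells with Vcam1, Ccl8 or Folr2 (591 and 463 CPM, −0.35, −0.45 to −0.25), and lay at −0.56 and −0.38 without those cells. With each cell weighted equally the latter was −0.29, within the limit. Slc11a1 was higher in Ly6c2-positive C1q cells (245 and 311 CPM, 0.34, 0.17 to 0.51) and was at 0.34 without them, but within the limit with TMM (0.31) or size factors (0.30), with gates on thinned cells (0.31), with thresholds at 0.5 times (0.29) or 1.5 times (0.28) and with each cell weighted equally (0.31). Slc40a1 was higher in the other C1q cells, from 70 UMIs (21.2 CPM) to 130 UMIs (34.1 CPM), a ratio of 0.68 (0.25 to 1.12), with 43 of the 130 UMIs in 1 cell. Hmox1-high cells held 29 of the 70 UMIs labelled wt and 47 of the 130 labelled cko. Cells with a Slc40a1 UMI were fewer labelled cko, 19 of 349 (5.44%, 3.31 to 8.37) against 26 of 281 (9.25%, 6.13 to 13.3), and after thinning to 1000 UMIs 0.287% against 2.14% (1 and 6 cells), but 4.01% against 3.91% after thinning to 3000 UMIs. With gates on thinned cells the ratio was 0.17, within the limit. In that state erythroid marker transcripts summed to 14.8 CPM labelled wt (49 UMIs) and 1.83 CPM labelled cko (7 UMIs), with 2 of 6 markers at 0, and their part in this difference was not tested. Over all monocyte/macrophage-like cells the erythroid markers summed to 3.71 and 1.59 CPM, with Alas2, the erythroid enzyme of heme synthesis, at 0.

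Across the wider list, 48 of the 57 genes had at least 100 UMIs over all monocyte/macrophage-like cells, and 6 were higher and 1 lower labelled cko, or 7 of 48 where 10.9% of all genes were past the limit. The median ratio of the list was 0.03, equal to that of all genes. Lcn2, lipocalin 2, which binds iron-loaded siderophores, went from 15.5 to 29.7 CPM (0.94, 0.74 to 1.13). Lcn2 is among the leading genes of the neutrophil-like class, and neutrophil markers summed to 409.6 and 515 CPM in monocyte/macrophage-like cells, all 5 detected. These markers moved in the same direction as Lcn2, and their part in it was not tested. Transferrin (Trf) went from 212 to 279 CPM (0.40, 0.34 to 0.46) and Spic from 38.0 to 50.5 CPM (0.41, 0.28 to 0.55), and Gclm had a ratio of 0.36 (0.18 to 0.55). The hemoglobin-haptoglobin receptor Cd163 had 65 and 90 UMIs (0.38, −0.10 to 0.86), and Ncoa4, the cargo receptor for ferritin breakdown, 57 and 47 UMIs (−0.37, −0.96 to 0.22), so counting error alone spans 0 for both.

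Of the genes of the list within the limit, the 12 with the most UMIs are given here. Their log2 ratios were 0.08 for Prdx1, 0.29 for Hp, 0.01 for Pcbp2 and 0.05 for Pcbp1, the chaperones that load iron into ferritin, and 0.04 for Hmox2, the constitutive heme oxygenase. They were −0.17 for each of Nfe2l2, Maf and Alas1, 0.10 for Hfe, 0.03 for Iscu, 0.14 for Fbxl5 and 0.06 for the hemopexin receptor Lrp1. Between C1q-high and C1q-low states 11 of 44 list genes were higher in both libraries and 4 lower (20.2% and 13.5% of all genes). Spic was higher, at 64.4 against 13.3 CPM labelled wt and 82.7 against 11.6 CPM labelled cko, as were Trf (307 against 123 and 384 against 153 CPM) and Maf (290.0 against 108 and 244 against 88.2 CPM). Hp was lower, at 58.3 against 517 and 76.6 against 703 CPM, and so was Slc7a11, at 27.3 against 57.8 and 26.8 against 60.3 CPM. Slc7a11 was thus low in C1q-high states and high in Hmox1-high cells.

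Tfrc, which dividing cells are known to raise, was compared between cycling cells, with at least 2 UMIs of Mki67 and Top2a, and the others. The 70 cycling cells labelled wt had 28 Tfrc UMIs (20.4 CPM) and the others 84 (4.33 CPM), a log2 ratio of 2.24 (1.57 to 2.87). Of these 28 UMIs, 19 were in 1 cell of the C1q-low, Ly6c2-low state with 37078 UMIs in all. Without the cell with the most Tfrc UMIs the ratio was 0.64 (−0.54 to 1.63). The 136 cycling cells labelled cko had 15 Tfrc UMIs (5.79 CPM) and the others 73 (3.75 CPM), a ratio of 0.63 (−0.28 to 1.44). Cycling cells were deeper, with medians of 19522 and 18779 UMIs against 8457 and 8241.

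Among the other genes, Hmox1 was lower in cycling cells and the reductases and exporter higher. Hmox1 had 189.7 against 353 CPM labelled wt and 228 against 371 CPM labelled cko (0.537-fold and 0.616-fold). Hmox1-high cells held 47.4% and 48.1% of all Hmox1 UMIs, and the cells below their limit, cycling or not, had 185 and 189.6 CPM. The part of the Hmox1-high cells in this difference was not tested. Blvra was 1.51-fold and 1.64-fold higher, Blvrb 1.33-fold and 1.56-fold, and Slc40a1 1.80-fold and 1.67-fold. Cycling cells made up 12.7% and 18.1% of C1q cells with Vcam1, Ccl8 or Folr2 and 13.5% and 21.7% of those with Cd300e, Clec4b1 or Pparg, the states where Blvra and Blvrb were highest, against 0.559% to 7.45% elsewhere.

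The genes with the most similar pattern to each member were sought over 11 classes in both libraries (22 points, Pearson r of log2(CPM + 1), 5157 genes whose mean CPM reached 20). These r values are high for any gene that separates myeloid from lymphoid classes and describe only that order. Hmox1 was closest to Ctsa, Clec4a2 and Msr1 (0.96 each), Slc11a1 to Ctsa (0.99), Acp2 and Adgre1 (0.98 each), and Blvrb to Lgmn, Itm2b and Acp2 (0.97 each). Blvra was closest to Hpgds and Hebp1 (0.96 each) and Nr1h3 (0.95). Fth1 was closest to Gm10116, Cd68 and Sirpa and Ftl1 to Cd68, Gm10116 and Fcgr2b, each with 0.99. Adgre1 and Cd68 are gating markers, and Gm10116 is the near-identical copy of Ftl1 named above. Slc40a1 had the loosest neighbours, Gas6 (0.89), 2210016F16Rik (0.88) and Hip1 (0.87). Tfrc stood apart with Idh3a, Uchl3 and Ruvbl1 (0.92 each), and its own r with the other 7 genes lay between −0.75 and −0.22.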

How the data were processed

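Leukocytes were profiled with 10x Genomics 3′ chemistry, version 2. Per the labels and the submitters' processing notes the authors used Cell Ranger, Seurat and build mm10, with versions not given in the sources used here. The authors deposited raw UMI counts per gene and cell for called cells, 2449 and 2718 cells with 24492486 and 27163485 UMIs in the libraries labelled wt and cko. The lowest depth of a deposited cell was 3184 UMIs labelled wt and 3187 UMIs labelled cko.

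Cells were kept where 200 or more genes were seen and mitochondrial UMIs made up no more than 10%, and the 48 and 58 cells with the highest Scrublet scores were removed as doublets, at a rate of 0.8% per 1000 cells. Cells were gated on summed marker UMIs per 10000 UMIs of the cell (at least 10 for T, NK and B cells, 100 for neutrophils, 5 for dendritic and monocyte/macrophage-like cells, 20 for C1q genes, 10 for interferon genes, 4 for the C1q subsets, 3 for nonclassical and 2 for Ly6c2), which left 108 and 129 cells unassigned. Lyz2 was not used in any gate. Markers, members and the heme and iron list were chosen with earlier results of these data known. UMIs were summed per class and library and given as CPM. Ratios have exact conditional binomial intervals, shares have Clopper-Pearson intervals, and a count of 0 is given with the limit of 3 counts. A ratio was counted past the limit at a log2 ratio of 0.32 in either direction, with at least 100 UMIs over both libraries. All 8 genes were described in every class. From the list, the genes past the limit and the 12 with the most UMIs besides them were named, and for each member the 3 genes closest in pattern, except genes that are counted but not reported by name here. Count models were not used, because each group is 1 library. Alternatives covered scaling (edgeR 4.0.16 TMM in R 4.3.3, median-of-ratios size factors), gates, doublets, depth, filters and left-out cells. The removal of Hmox1-high cells, their limit and equal weights for states were chosen after seeing the data. The code was tested on made-up counts with known ratios. IREs and gene copies came from GENCODE GRCm38 transcripts. Tools were Python 3.11.15, scanpy 1.11.5, numpy 2.4.6, scipy 1.17.1, pandas 2.3.3 and matplotlib 3.10.9. The row of the targeted microRNA was not analysed here.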

Additional observations from a re-analysis of the deposited data

Results flagged for a closer look

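Hmox1 moved in opposite directions between the libraries in different monocyte/macrophage states. Set over the library labelled wt, the CPM labelled cko gave a log2 ratio of 2.00 in the nonclassical state and −0.55 in C1q cells with Cd300e, Clec4b1 or Pparg. With 1 library per genotype the difference was not tested. Without the cell of the state with the most Hmox1 UMIs in each library the values were 1.32 and −0.24, and with gates on cells thinned to 3000 UMIs they were 1.08 and −0.18. In the cells below the Hmox1-high limit, which by construction narrows differences in Hmox1, they were 0.05 and 0.31.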

How the results depend on the processing

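Over the alternatives, 45 of 51 counts and main values stayed close to the reported value and 6 moved. Of 336 values of single genes 253 stayed, 80 moved and 3 that were past the limit took the opposite sign. Without the Hmox1-high cells, which are removed by their own Hmox1 level, the pairs of gene and state past the limit (a log2 ratio of 0.32) went from 12 to 6, and the log2 ratios (cko over wt) that were past the limit and took the opposite sign were those of Ftl1 in the nonclassical state (−0.02), of Hmox1 in C1q cells with Cd300e, Clec4b1 or Pparg (0.31) and of Hmox1 in the other C1q cells (0.10). Ratios within the limit also crossed 0, such as that of Slc40a1 over all cells, from 0.01 to −0.17 without the Hmox1-high cells. Over all monocyte/macrophage-like cells the count of 1, Tfrc, went to 0 when each library's cell richest in Tfrc was left out and to 0 with each cell weighted equally. The heme and iron list had 7 of 48 genes past the limit, where 10.9% of all genes were. With at least 1000 UMIs it was 3 of 25, where 3.81% of all genes were. With at least 1 UMI in each library it was 6 higher and 4 lower of 52, where 27.5% of all genes were past the limit. The Tfrc ratio of cycling over other cells labelled wt went from 2.24 to 3.76 in cells thinned to 3000 UMIs, from 3 UMIs in cycling cells, and the cause was not tested. It went to 0.64 without the cell that held 19 of the 28 Tfrc UMIs. Among single ratios, Slc40a1 in the other C1q cells ranged from 0.17 to 1.32 and Hmox1 in the nonclassical state from 0.05 to 2.33, while Blvrb in the C1q-low, Ly6c2-low state ranged from −0.57 to −0.49 and Slc11a1 over all cells from 0.19 to 0.31. TMM and size factors moved the median of all genes by at most 0.05 on the log2 scale. Depth limits Tfrc, with 112 and 88 UMIs over all monocyte/macrophage-like cells, and Slc40a1 in the classical, nonclassical and Ly6c2-positive C1q states, each under 100 UMIs. No paired analysis was possible because each genotype is 1 library.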
